A study of Mus musculus musculus x Mus musculus castaneus with 8 samples.

Results

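Libraries of fibroblasts treated with 5azadC (5-aza-2'-deoxycytidine, a cytidine analogue that inhibits DNA methylation) were compared with libraries of untreated fibroblasts, 2 on each side. They were chosen by their treatment label and are 4 of the 8 libraries of the study, which has 4 groups. The other groups received VX680, an inhibitor of Aurora kinases, alone or with 5azadC, and entered here only as part of the estimate of spread. All cells were tail fibroblasts from a female F1 mouse with a Mus musculus and a Mus castaneus parent, so reads over sequence variants can be assigned to the musculus (mus) or the castaneus (cas) chromosome of each pair. They were seeded on 15 cm plates, drug was given 24 h after seeding, and RNA was taken after 72 h of growth. Untreated cells received the same volume of the solvent DMSO. The labels give no drug dose. They also do not say whether libraries of a group came from separate cultures, so a p-value here reflects only how far these libraries spread, and that spread may be technical. By its title, the study asked how DNA methylation and Aurora kinase pathways act on silencing of the X chromosome, and the comparison here gives the response to the methylation inhibitor by itself.

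5azadC is built into DNA during replication and traps the maintenance methyltransferase Dnmt1, so that methylation is lost from newly made DNA as cells divide. In mammalian cells CpG methylation helps to silence germline genes, retroelements, 1 allele of imprinted genes and genes on the inactive X chromosome of female cells. Fibroblasts are mesenchymal cells known for making the collagens, proteoglycans and elastic fibres of connective tissue.

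The untreated libraries held 11169532 and 7256577 reads in genes and the 5azadC libraries 9189904 and 7698496, and between 26.5% and 26.9% of reads could be assigned to an allele. Levels are given as CPM, the usual read count scaled to library size, here with TMM factors, always for replicates 1 and 2 in that order. Of 24421 genes in the table, 12643 had enough reads to be tested. Untreated replicates were the more alike: 1515 tested genes (12%) lay at least 1.5-fold apart between them, against 2061 (16.3%) between the 5azadC replicates. A call means an adjusted p under 0.05 in edgeR's quasi-likelihood F test with Benjamini-Hochberg adjustment over all genes tested, and a log2 change is the level with 5azadC relative to untreated, ± SE.

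The fibroblast label was checked against 11 marker genes. Their sum was 35070 and 39810 CPM in untreated and 23100 and 26870 CPM in 5azadC libraries. Col1a1, a chain of type I collagen, had 12430 and 15550 CPM in untreated and 5972 and 8067 CPM in treated libraries. Vim, the mesenchymal filament protein, had 3558 and 4072 CPM untreated and 6223 and 6057 CPM treated. Of 10 tested markers 5 fell, 4 of them by at least 2-fold, and Vim and Thy1 rose, with a median log2 change of -0.56. The proteoglycan gene Lum, named after its values were seen, had 21 and 8 reads in untreated and 3 and 7 in treated libraries and was not tested. The summed markers of each other cell type stood far lower. Keratinocyte markers summed to between 1.36 and 2.93 CPM over the 4 libraries, leukocyte markers to between 16.3 and 21.4, and Schwann cell markers to between 3.46 and 7.04. The endothelial list summed to 126 and 143 CPM in untreated and 233 and 218 CPM in 5azadC libraries. Most of that sum was Eng, a TGF-beta co-receptor also made by fibroblasts. The defining endothelial genes Pecam1, Vwf and Tek had at most 11 reads in any library. Adipocyte markers summed to 171 and 189.7 CPM in untreated and 83.8 and 99.6 CPM in 5azadC libraries. Of 4 tested adipocyte markers Lpl and Cebpa fell, while Fabp4 and Pparg rose (1.30 ± 0.44 and 1.02 ± 0.34), rises that numbered 0 in some alternatives. The part of other cell types in the results was not tested. In bulk RNA, fewer cells of a type and less RNA per cell cannot be told apart.

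With 5azadC 2855 genes were higher (22.6% of genes tested) and 2477 were lower (19.6%). Of these, 1010 were at least 2-fold higher (7.99%) and 731 at least 2-fold lower (5.78%). The median log2 change over all genes was 0.00, but TMM scaling centres the bulk of genes near 0, so this does not show balance. Of non-coding RNAs 32 of 418 (7.66%) were higher and 75 (17.9%) lower, against 23.2% and 19.8% of 12087 protein-coding genes; this difference between classes was not tested. Among 404 X-linked genes 57 were higher (14.1%) and 91 lower (22.5%), against 22.9% and 19.5% of the 12239 others, which was not tested either. Gene groups moved very unevenly around these shares, as the plot of called members by list shows.

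**Figure D1:**
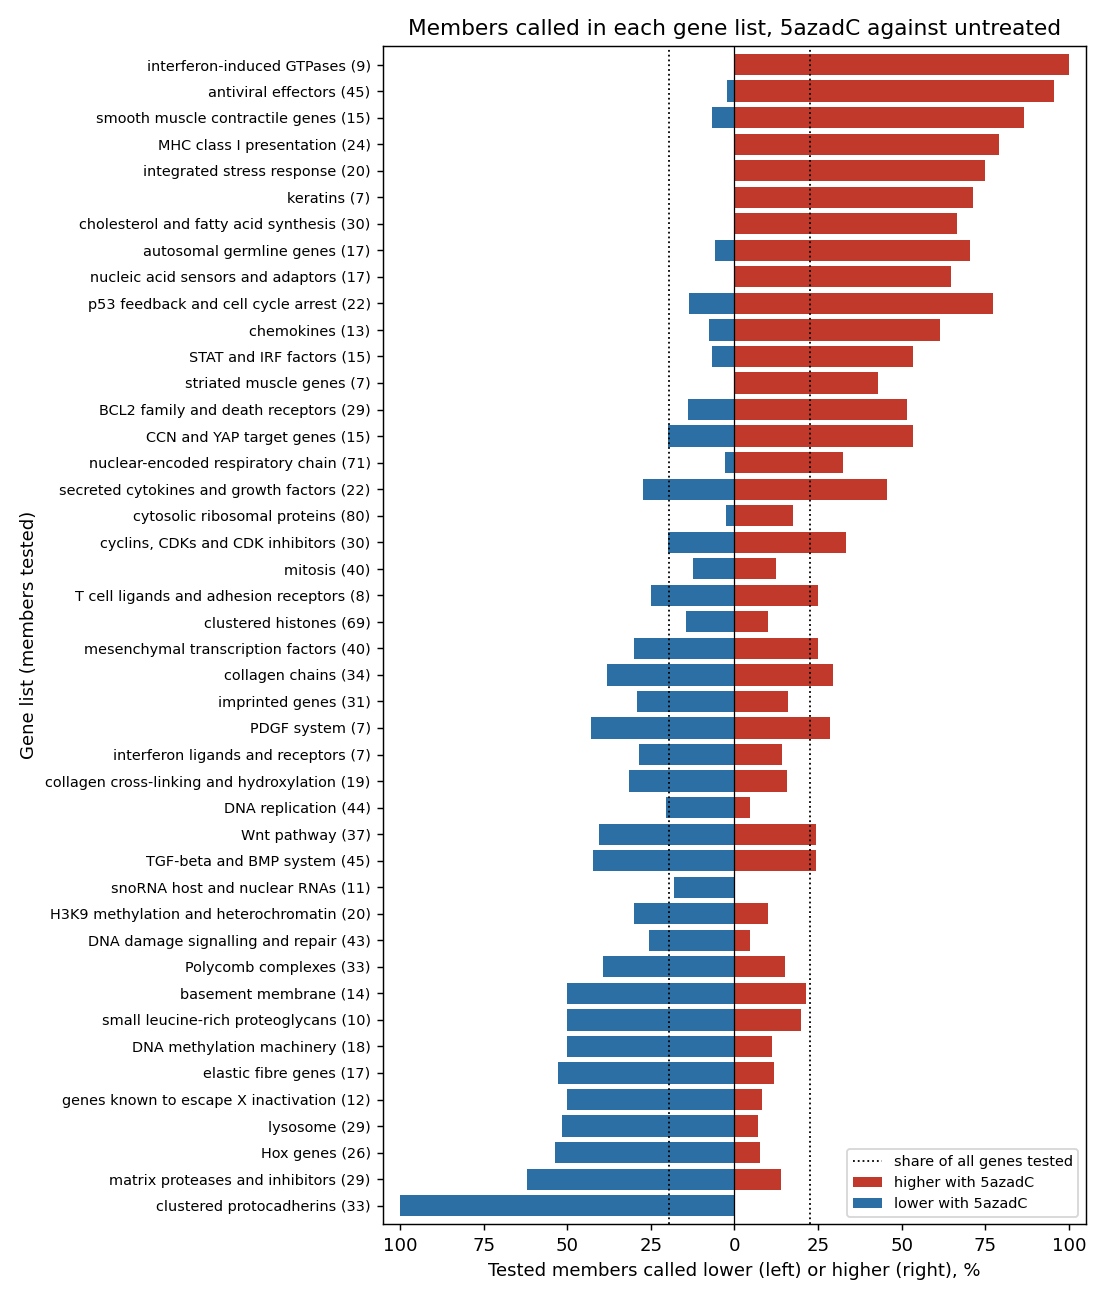
Share of tested members called higher (right, red) or lower (left, blue) with 5azadC in each of the 44 pathway lists with at least 7 tested members; dotted lines mark the 22.6% and 19.6% of all genes tested that were called. Interferon-induced GTPases stand at the top with 9 of 9 higher and clustered protocadherins at the bottom with 33 of 33 lower. Gamma protocadherins share their last exons, so the 33 falls count the same reads many times and are not separate results. The low-count filter can let a gene through on drug-treated libraries alone. For lists nearly silent in untreated cells the bars are therefore not shares of the whole list.

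Antiviral effectors and interferon-induced GTPases, both of the type I interferon response, had the highest shares of rises among the lists drawn. Cytosolic sensors of viral nucleic acid signal through adaptors to IRF factors, which switch on interferon genes; secreted interferon then acts through its receptor on STAT and IRF factors, which drive a large set of antiviral genes. Interferons themselves were barely read: Ifnb1, the main fibroblast interferon, had 4 and 2 reads in untreated libraries and 0 in both treated ones, and Ifna4 had 1 read in all. Of 7 tested ligand and receptor genes 1 rose and 2 fell, counts that were both 0 in some alternatives. Ifnar1, the signalling chain of the type I receptor, stood at 119 and 106 CPM in untreated and 87.1 and 83.5 CPM in treated libraries. All treated values lay below the untreated ones. Its log2 change was -0.40 ± 0.11 (adjusted p 0.00884), but without untreated replicate 1 it was -0.32 with adjusted p 0.079. Jak1 and Tyk2, the kinases bound to the receptor, were not called. Jak1 had 167 and 164 CPM untreated and 157 and 176 CPM treated, and the groups overlapped.

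Among 17 tested sensors and adaptors, 11 rose and none fell, with a median log2 change of 1.63. The RNA helicase Dhx58 (LGP2) had 2.36 and 2.64 CPM in untreated cells and 113 and 58.4 CPM with 5azadC. Both treated libraries lay far above both untreated ones, and the log2 change was 5.11 ± 0.33 (adjusted p 1.15e-07). Ifih1 (MDA5), a sensor of long double-stranded RNA, went from 6.17 and 6.16 to 125 and 64.9 CPM, a log2 change of 3.95 ± 0.29. Ddx58 (RIG-I), which binds RNA with a 5' triphosphate, went from 19.22 and 15.2 to 144 and 79.95 CPM (2.69 ± 0.23). The treated and untreated libraries did not overlap for any of these. Zbp1, a sensor of Z-form nucleic acid, had 0.453 and 0.4397 CPM untreated and 42.9 and 14.1 CPM treated, and its log2 change of 5.96 ± 0.59 was the largest of the 17. Adar, which edits double-stranded RNA, rose from 61.8 and 63.03 to 234 and 151 CPM. The remaining 6 tested members, which included the DNA sensor cGAS (Mb21d1), the adaptors Mavs and Tmem173 (STING) and the receptor Tlr3, were not called.

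Of 15 tested STAT and IRF genes 8 rose and 1 fell. Irf7, the IRF that amplifies interferon induction, had 0.907 and 2.64 CPM untreated and 156 and 67.9 CPM treated, with a log2 change of 6.13 ± 0.45 (adjusted p 3.27e-07). Stat2 and Irf9, which act together on interferon-stimulated promoters, both rose. Stat2 went from 49.8 and 55.5 to 305 and 143 CPM and Irf9 from 23.7 and 22.6 to 130.2 and 82.3 CPM. Their log2 changes of 2.10 ± 0.24 and 2.20 ± 0.18 were many times their SE. Treated values lay above untreated ones in every library for both. Irf1 and the MHC class I activator Nlrc5 rose as well, by 1.21 ± 0.16 and 2.33 ± 0.33 on the log2 scale. Irf3 and Stat3 were not called. Stat5b fell from 93.2 and 104 to 83.9 and 72.4 CPM (-0.33 ± 0.11, adjusted p 0.0239). This call was lost in the fit of the 4 compared libraries alone (adjusted p 0.0598) and without untreated replicate 2 (0.129) or 5azadC replicate 2 (0.0974).

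Of 45 tested antiviral effectors 43 rose and 1 fell, with a median log2 change of 4.28, or 4.10 with the genes at 0 reads set to their lower bounds. The list held 51 genes, and 6 of those tested had no read in a group. Low genes can pass the low-count filter on drug-treated libraries alone. In the alternatives run the count of rises lay between 41 and 45. Isg15, a ubiquitin-like modifier, had 1.995 and 2.49 CPM untreated and 217 and 110.5 CPM treated (log2 change 6.22 ± 0.34, adjusted p 2.96e-08). Usp18, the protease that removes Isg15 and damps receptor signalling, went from 0.272 and 0.147 to 61.4 and 33.5 CPM, which at 7.64 ± 0.52 was the largest log2 rise among genes with at least 1 read in every library. Ifit1, which binds viral RNA ends, rose from 6.71 and 6.596 to 272 and 138 CPM. Bst2 (tetherin), which holds budding virus at the membrane, rose from 11.97 and 10.99 to 244 and 139 CPM. Each of these had its 2 treated values above its 2 untreated values. Rtp4 and Parp14 went the same way, with log2 changes of 5.50 ± 0.37 and 4.28 ± 0.34.

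The oligoadenylate synthetases make a messenger of antiviral defence from double-stranded RNA, and several were silent or nearly so in untreated cells. Oas3 had no read in untreated cells and 34.8 and 15.2 CPM with 5azadC. Oas1a had no read either and then 17.2 and 6.45 CPM, at least 73.5-fold higher against a floor of 3 reads over the group. Oas2, with 2 untreated reads in all, rose 147-fold (95% counting interval 40.3 to 1221). Oas genes are close paralogues, so reads shared between copies may be split among them.

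All 9 tested interferon-induced GTPases, which attack the membranes around intracellular pathogens, rose, with a median log2 change of 4.60. Of 17 on the list 15 had a read. The low-count filter can let a gene through on drug-treated libraries alone, so 9 of 9 is not a share of the list. Gbp2 had 1.36 and 1.32 CPM untreated and 43.2 and 21.3 CPM treated (4.58 ± 0.39). Irgm1 rose from 8.52 and 6.45 to 85.8 and 40.9 CPM (3.06 ± 0.30), and Igtp from 2.18 and 0.733 to 53.4 and 24.1 CPM (4.60 ± 0.42). Summed over the family, untreated libraries held 18.95 and 13.2 CPM and treated libraries 362.5 and 159 CPM. Mx1, an antiviral GTPase that was too low to test, had no read in untreated cells and 54 and 7 reads with 5azadC. These genes too have near-identical neighbours.

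Of 24 tested genes of MHC class I presentation 19 rose and none fell. The peptide transporter Tap1 went from 5.71 and 6.596 to 77.9 and 47.2 CPM (3.36 ± 0.26, adjusted p 4.93e-07). The immunoproteasome subunit Psmb8 rose from 0.544 and 0.733 to 16.4 and 8.37 CPM (4.30 ± 0.47). The classical class I chains H2-D1 and H2-K1 rose from 21.8 and 21.6 to 141 and 85.3 CPM and from 7.71 and 10.1 to 73.2 and 42.5 CPM. No treated value of these 4 genes reached down to an untreated value. Class I genes share much of their sequence, and the hybrid carries 2 haplotypes, so single members are uncertain. B2m, the shared light chain, was not called (adjusted p 0.076), its treated and untreated values overlapping. Ligands that T cells read beside class I moved in both directions. The adhesion receptor Vcam1 fell from 284 and 227 to 127 and 132 CPM (-0.98 ± 0.11). Icam1 rose from 0.181 and 0.293 to 2.56 and 1.65 CPM (3.16 ± 0.69).

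**Figure D2:**
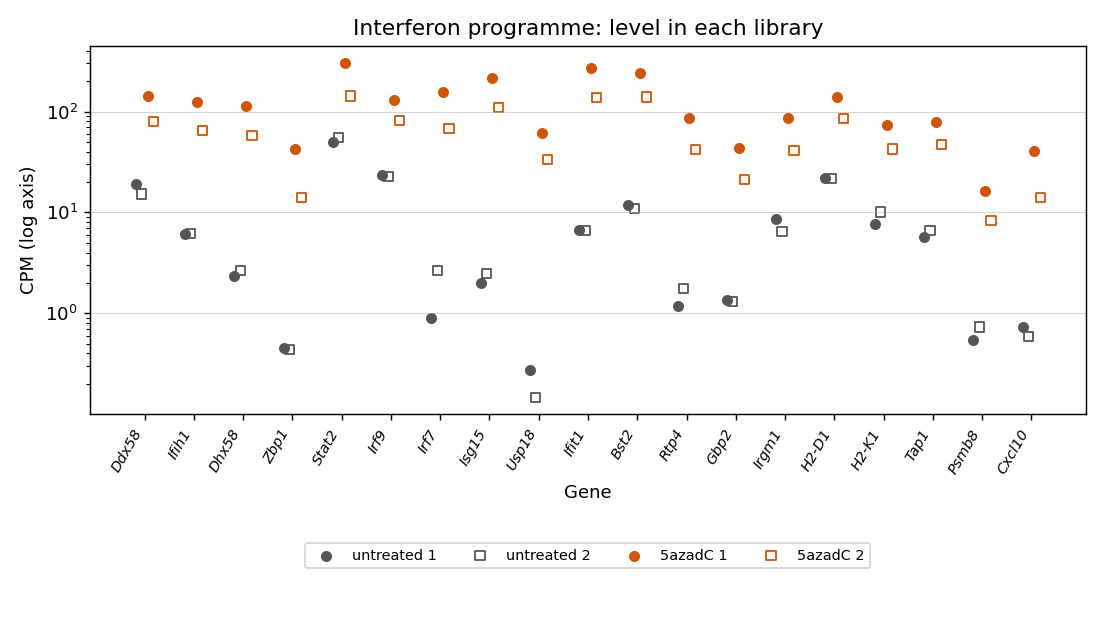
CPM of 19 genes of the interferon response (log axis) in each of the 4 libraries, grey for untreated and orange for 5azadC, filled for replicate 1 and open for replicate 2. For every gene drawn both treated values lie above both untreated values, and replicate 1 lies above replicate 2 among the treated libraries.

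The size of the interferon response differed between the treated libraries. Of the 45 tested antiviral effectors 42 were higher in 5azadC replicate 1 than in replicate 2. The same order held for 9 of 9 GTPases and 22 of 24 class I genes, against 52.4% of all genes tested. Among the effectors 39 lay at least 1.5-fold apart between the treated libraries and 19 between the untreated ones. Of all genes tested 16.3% and 12% did. Effectors summed to 4290 CPM in replicate 1 and 2437 CPM in replicate 2, and to 701 and 663 CPM in the untreated libraries. Genes of the p53 response did not share this order: 10 of 22 were higher in replicate 1 and none lay 1.5-fold apart. No label gives a difference between the treated libraries.

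**Figure D3:**
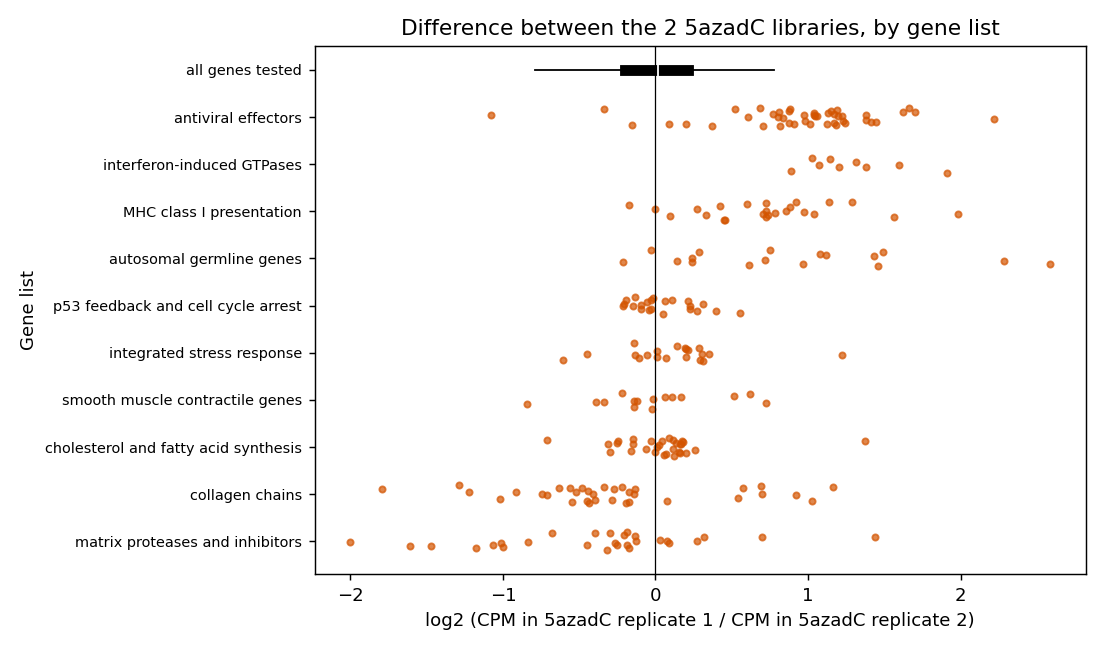
log2 ratio of CPM in 5azadC replicate 1 to replicate 2 for the tested members of 10 gene lists (points, genes with reads in both), with all genes tested above them (thick line from the 25th to the 75th percentile, thin line from the 5th to the 95th, white tick at the median). Antiviral effectors, GTPases and class I genes lie to the right of 0, p53 genes around 0, and most collagens and matrix proteases to the left.

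Chemokines, which attract leukocytes, rose in 8 of 13 tested genes and fell in 1. Of 37 on the list 22 had a read, and the low-count filter can let a gene through on drug-treated libraries alone. Cxcl10, an interferon-induced attractant of T cells, went from 0.725 and 0.586 to 40.6 and 14.1 CPM (5.33 ± 0.54). Ccl5 had 2 reads in all untreated libraries together and 9.92 and 5.76 CPM with 5azadC, which is 71.9-fold (95% counting interval 19.5 to 600.0). Ccl2, a monocyte attractant, and its neighbour Ccl7 rose by 3.01 ± 0.20 and 2.70 ± 0.23. The sum of the list went from 1298 and 1278 CPM to 613 and 571 CPM. The single member that fell, Cxcl12, was by far the most abundant, at 1216 and 1193 CPM untreated and 339.6 and 355 CPM treated. It is the stromal chemokine that retains stem and immune cells, and its log2 change was -1.79 ± 0.09 (adjusted p 1.74e-08). Secreted cytokines and growth factors moved both ways. Gdf15, a stress-induced hormone, rose from 0.181 and 0.293 to 26.5 and 10.8 CPM (6.30 ± 0.63), and Hbegf from 5.89 and 4.25 to 30.7 and 29.2 CPM (2.52 ± 0.17). Csf1, which sustains macrophages, rose from 189.8 and 198 to 618 and 427 CPM (1.43 ± 0.14). Among growth factors of stroma and vessels, Fgf10, Vegfc and Angpt1 fell. Fgf10 went from 174 and 168 to 41.02 and 68.02 CPM (-1.66 ± 0.17), Vegfc from 73.1 and 78.9 to 21.6 and 25.6 CPM (-1.69 ± 0.13), and Angpt1 from 115 and 97.03 to 37.2 and 42.2 CPM (-1.42 ± 0.13). In all, 10 of 22 tested cytokines and growth factors rose and 6 fell.

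Genes silent in untreated fibroblasts gained reads with 5azadC. With 0 reads in both untreated and at least 10 reads in each treated library there were 36 genes, of which 34 were protein-coding and 5 X-linked. In the reverse direction there were 6. The count depends on the read minimum, being 79 at 5 reads and 12 at 20 reads, and it rose to 89 when 5azadC replicate 2 was left out and to 76 or 56 without untreated replicate 1 or 2. Of the 36, 29 were higher in 5azadC replicate 1. Padi3, a peptidylarginine deiminase of the hair follicle, reached 8.47 and 3.57 CPM (at least 37.3-fold higher against a floor of 3 reads over the group). Plac8, known from placenta and leukocytes, reached 14.1 and 5.897 CPM (at least 61.8-fold), and Ltc4s, the leukotriene C4 synthase of mast cells, 3.01 and 2.88 CPM (at least 17.6-fold). Padi3, Plac8 and Ltc4s are thus known from unrelated tissues. Of the 36, however, 14 are members of the gene lists used here. Oas3, Oas1a and Trim30a are antiviral effectors, and Tex19.1, Tex19.2 and Fkbp6 are germline genes, so the 36 are not a separate result. Slc16a11 and Umodl1 reached 4.57 and 2.61 CPM and 4.79 and 3.02 CPM from no read. Those in the reverse direction included Emilin3, Fam198a, Pde7b, Scara5 and Ttc22. Scara5, a ferritin receptor, had 4.44 and 4.40 CPM in untreated cells and no read with 5azadC (at least 24.0-fold lower).

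Germline genes whose promoters are known to be held silent by CpG methylation gained reads as well. Of 48 autosomal genes on the list 39 had a read in some library, 17 passed the filter on low counts, and 12 of these were called higher with 1 lower. The filter lets a gene through on its treated libraries alone, so the share of tested genes is not a share of the list. Sohlh2, a germ cell transcription factor, rose 95.5-fold (95% counting interval 26.04 to 795). It had 2 reads over the untreated libraries and 15.1 and 5.35 CPM with 5azadC. Dazl, which binds RNA in germ cells, rose 26.9-fold (95% counting interval 7.06 to 228), to 3.57 and 2.33 CPM. The piRNA factor Piwil2 rose 101-fold (95% counting interval 17.7 to 4032), to 7.92 and 2.88 CPM, and Fkbp6, Tex19.2 and Mov10l1 rose from no read. Brdt, the testis bromodomain protein, went the other way, from 7.797 and 5.72 to 3.01 and 2.47 CPM (-1.31 ± 0.35, adjusted p 0.00859), a call lost without untreated replicate 1 (adjusted p 0.0941). Other members stayed near 0. Ddx4 (Vasa) had 2 and 1 reads untreated and 7 and 8 treated, and Sycp1, Sycp2 and Piwil1 had at most 1 read in any library.

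The X-linked germline families remained low, though their summed level went from 0.453 and 1.17 CPM untreated to 10.26 and 6.17 CPM with 5azadC. Called rises numbered 4 without the low-count filter and 0 in the fit of the 4 compared libraries alone. Of 66 Rhox, Xlr, Mage and related genes 29 had a read and 1 was tested, Taf7l, a testis paralogue of a TFIID subunit, which rose 13.7-fold (95% counting interval 3.42 to 119.5). That call was lost without untreated replicate 1 (adjusted p 0.147) or 5azadC replicate 1 (adjusted p 0.122). The Rhox2 homeobox copies had no read in untreated cells and few with 5azadC. Rhox2f, for example, had 7 and 6 reads and Rhox2g 10 and 1. The copies are nearly identical, so their reads cannot be placed with certainty. Keratins, the filaments of epithelia, were nearly silent in untreated cells. Of 48 keratin genes 26 had a read and 7 were tested, of which 5 rose. At least 3 of these, with no read in untreated cells, passed the low-count filter through drug-treated libraries alone, so the count is no share of the family. Krt19 went from 0.544 and 1.17 to 9.698 and 7.27 CPM (3.41 ± 0.33). Krt13, Krt18 and Krt8 rose from no read, Krt13 to 2.01 and 2.47 CPM. The call of Krt8 was lost without 5azadC replicate 1 (adjusted p 0.0534). The keratinocyte markers Krt5 and Krt14 had at most 1 read in any library.

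The p53 response rose with little difference between replicates. p53 (Trp53) is the transcription factor that halts the cell cycle and promotes death after DNA damage, and Mdm2 is its negative regulator. Of 22 tested target and feedback genes 17 rose and 3 fell, with a median log2 change of 1.06, and the count of rises was 17 in every alternative run. Cdkn1a (p21), the inhibitor of cyclin-dependent kinases, had 39.98 and 42.5 CPM in untreated and 274 and 293 CPM in treated cells. The groups lay far apart with little difference between replicates, and the log2 change was 2.78 ± 0.10 (adjusted p 1.68e-09). Mdm2 rose from 81.3 and 88.5 to 208 and 214 CPM (1.32 ± 0.09). Zmat3, Btg2 and Sesn2, further targets, rose by 1.64 ± 0.10, 1.96 ± 0.13 and 1.26 ± 0.10. Against this direction, the phosphatase Ppm1d fell from 68.7 and 70.1 to 41.8 and 40.5 CPM (-0.75 ± 0.10) and Sesn1 from 36.5 and 28.4 to 15.5 and 17.7 CPM (-0.98 ± 0.20). Gadd45a also fell, from 21.9 and 25.2 to 14.7 and 14.1 CPM, though not past the threshold without untreated replicate 2 (adjusted p 0.082).

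Among death genes the BH3-only proteins moved both ways. Pmaip1 (Noxa) rose from 2.901 and 2.93 to 16.2 and 20.4 CPM (2.64 ± 0.21), as did Bbc3 (Puma). Bax, a pore-forming member, rose from 54.9 and 64.3 to 133 and 145 CPM (1.23 ± 0.10). Bmf and Bcl2l11 (Bim), which answer to loss of attachment or of growth factors, fell. Bmf went from 103 and 87.4 to 15.4 and 14.8 CPM (-2.66 ± 0.15, adjusted p 3.95e-08) and Bcl2l11 from 81.1 and 85.5 to 21.5 and 18.6 CPM (-2.04 ± 0.13). In neither gene did treated and untreated values overlap. The death receptors Tnfrsf10b and Eda2r rose, Eda2r from 3.08 and 1.03 to 20.7 and 21.5 CPM (3.23 ± 0.32). In all 15 of 29 tested genes rose and 4 fell.

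Cyclins and inhibitors moved both ways, with 10 of 30 higher (33.3%) and 6 lower (20%), against 22.6% and 19.6% of all genes tested. Ccnd1 and Ccnd2, the D cyclins that open G1, rose by 2.52 ± 0.11 and 1.997 ± 0.13. Ccnd1 went from 57.8 and 66.2 to 389 and 318 CPM. The inhibitor Cdkn2b rose from 66.2 and 64.6 to 167 and 183 CPM (1.42 ± 0.09), whereas Cdkn1b (p27) fell from 331 and 358 to 156 and 189 CPM (-1.003 ± 0.10) and Cdkn2c (p18) from 354 and 343 to 194 and 226 CPM. Replication, mitosis and repair genes moved little. Of 44 replication genes 2 rose (4.55%) and 9 fell (20.5%, near the 19.6% of all genes), and none changed 2-fold. The ribonucleotide reductase subunit Rrm2 rose from 172 and 182 to 253 and 245 CPM (0.50 ± 0.09), and the count of falls was 2 without untreated replicate 1 and 4 in the fit of the 4 libraries alone. Of 40 mitosis genes 5 rose and 5 fell (12.5% each), none by 2-fold. Plk1 rose from 126 and 134 to 187 and 161 CPM (0.42 ± 0.10). The falls numbered 8 without 5azadC replicate 1 and 1 in the fit of the 4 libraries alone. Of 43 damage signalling and repair genes 2 rose and 11 fell (5 without untreated replicate 1). Brca2, of homologous recombination, fell from 109.6 and 104 to 78.1 and 61.6 CPM (-0.61 ± 0.12). The alkyl-guanine repair gene Mgmt, a gene known to be silenced by methylation in tumours, rose from 1.45 and 1.91 to 5.68 and 7.82 CPM (2.02 ± 0.40).

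The integrated stress response, in which Atf4 drives amino acid supply, rose in 15 of 20 tested genes with none lower, at a median log2 change of 0.84. Atf3 went from 0.997 and 1.76 to 9.47 and 9.05 CPM (2.81 ± 0.31). The synthetic enzymes Psat1 and Asns and the transporter Slc7a5 rose by 1.48 ± 0.10, 1.58 ± 0.13 and 1.53 ± 0.14. Psat1 had 65.2 and 62.6 CPM untreated and 191 and 166 CPM treated. Chac1, a glutathione-degrading target, rose from 10.2 and 9.67 to 34.7 and 30.3 CPM.

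Sterol and fatty acid synthesis rose in 20 of 30 tested genes and fell in none, by small steps: the median log2 change was 0.44 and 1 gene reached 2-fold. The sterol demethylation enzyme Msmo1 went from 50.1 and 43.4 to 79.6 and 83.1 CPM (0.79 ± 0.11), and its treated values lay above both untreated ones. Lysosomal genes went the other way, with 15 of 29 lower and 2 higher. Man2b1, a lysosomal mannosidase, fell from 184 and 191 to 82.3 and 84.3 CPM (-1.17 ± 0.09, adjusted p 5.84e-07). Grn, the precursor of granulins, fell from 481 and 494 to 261 and 253 CPM (-0.92 ± 0.08), and the collagen-degrading protease Ctsk from 76.4 and 80.8 to 18.4 and 35.8 CPM (-1.55 ± 0.22). Sqstm1 (p62), the autophagy receptor, rose from 340.5 and 343 to 526 and 486 CPM (0.57 ± 0.08). Respiratory chain genes were higher in 23 of 71 (32.4%) and lower in 2. Ribosomal protein genes were higher in 14 of 80 (17.5%) and lower in 2, a share of rises below the 22.6% of all tested genes. Both counts moved with single libraries. The respiratory rises numbered 15, 14 and 14 without untreated replicate 1, untreated replicate 2 and 5azadC replicate 2, with 8 falls in the last case. The ribosomal rises numbered 9 without untreated replicate 2. Atp5b, the catalytic subunit of ATP synthase, rose from 674 and 691 to 1160 and 1164 CPM (0.77 ± 0.08).

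The connective tissue programme fell in its most abundant members. Of 34 tested collagen chain genes 13 fell and 10 rose, and their summed level went from 45240 and 50200 CPM in untreated to 26150 and 33710 CPM in treated cells. Col1a1, the main fibrillar chain, had 12430 and 15550 CPM and then 5972 and 8067 CPM (-0.99 ± 0.13, adjusted p 5.35e-05). Col3a1 went from 4778 and 4653 to 1249 and 2091 CPM (-1.50 ± 0.17), and Col14a1, which decorates fibrils, from 199 and 169 to 19.8 and 46.4 CPM (-2.50 ± 0.26). Treated libraries were below untreated ones throughout. Among the chains that rose, Col10a1, the chain of hypertrophic cartilage, went from 1.995 and 3.23 to 30.3 and 28.8 CPM (3.56 ± 0.22). Col18a1, a basement membrane chain and source of endostatin, went from 45.2 and 36.5 to 368 and 228 CPM (2.86 ± 0.19).

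Enzymes that finish collagen followed in part, with 6 of 19 lower and 3 higher. Lox, the oxidase that cross-links collagen and elastin, fell from 4679 and 5125 to 1284 and 1655 CPM (-1.74 ± 0.11), and the hydroxylase P4ha3 from 76.2 and 86.5 to 32.3 and 41.4 CPM (-1.14 ± 0.16). The Lox paralogues Loxl3 and Loxl4 rose, Loxl3 from 103 and 104 to 235 and 214 CPM (1.12 ± 0.09). Small leucine-rich proteoglycans, which space collagen fibrils, fell in 5 of 10 and rose in 2. Decorin (Dcn) went from 91.1 and 74.02 to 4.79 and 16.2 CPM (-3.03 ± 0.32), osteoglycin (Ogn) from 240.0 and 182 to 52.8 and 44.6 CPM (-2.11 ± 0.15), and asporin (Aspn) from 315 and 247 to 45.6 and 93.4 CPM (-2.03 ± 0.22). For Dcn and Aspn the treated replicates differed by at least 2-fold, with replicate 1 the lower. Podnl1 rose from 13.1 and 12.5 to 24.97 and 26.1 CPM.

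Elastic fibre genes fell in 9 of 17 and rose in 2. The microfibril proteins Mfap4 and Fbn2 fell, Mfap4 from 24.03 and 28.9 to 1.45 and 4.39 CPM (-3.22 ± 0.36) and Fbn2 from 313 and 349 to 63.6 and 147 CPM (-1.66 ± 0.25). Elastin (Eln) had 71.1 and 78.1 CPM in untreated cells and 0.892 and 17.1 CPM in treated cells, so the treated libraries differed widely from each other, and both lay below the untreated ones (-3.12 ± 0.56, adjusted p 0.000547). Ltbp2, which binds fibrillin, rose from 40.7 and 45 to 196 and 229 CPM (2.31 ± 0.11). In the basement membrane 7 of 14 genes fell and 3 rose. The laminin chains Lama2 and Lama4 fell, with log2 changes of -2.63 ± 0.28 and -1.88 ± 0.37, and Lamb2 from 1224 and 1281 to 597 and 745 CPM (-0.90 ± 0.10). Agrin (Agrn) rose from 168 and 159.6 to 449 and 277 CPM (1.15 ± 0.16).

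Enzymes that cut matrix, with their inhibitors, fell in 18 of 29 tested genes, with 4 higher and a median log2 change of -0.85. Adamts17 went from 115 and 106 to 1.78 and 4.94 CPM (-5.09 ± 0.27). Adamts10, a relative also tied to microfibrils, went from 138 and 144 to 36.01 and 64.3 CPM (-1.50 ± 0.18). Mmp11 (stromelysin 3) and Adamts7, which cuts cartilage matrix protein, fell, with log2 changes of -0.92 ± 0.10 and -0.99 ± 0.12. Of the tissue inhibitors of metalloproteases Timp2 was not called, while Timp1 rose from 19.9 and 19.9 to 55.9 and 46.4 CPM (1.36 ± 0.13) and Timp3 from 205 and 229.5 to 415 and 455 CPM (1.003 ± 0.09). Beyond the lists of matrix genes, the 15 largest falls by log2 change included those of Fap, a protease of activated fibroblasts (12.97 and 6.89 to 0.446 and 0.549 CPM, -4.31 ± 0.53), Sncaip, a synuclein-binding protein (24.6 and 24.6 to 0.334 and 0.686 CPM, -5.60 ± 0.46), the potassium channel Kcnk3 (-4.55 ± 0.51), the lysophospholipase Enpp2 (-3.86 ± 0.35), Fgl2 (-4.10 ± 0.57), Ptchd1 (-4.30 ± 0.68), Cd93 (-3.69 ± 0.30), Negr1 (-3.65 ± 0.38) and Ypel1 (-3.60 ± 0.32).

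**Figure D4:**
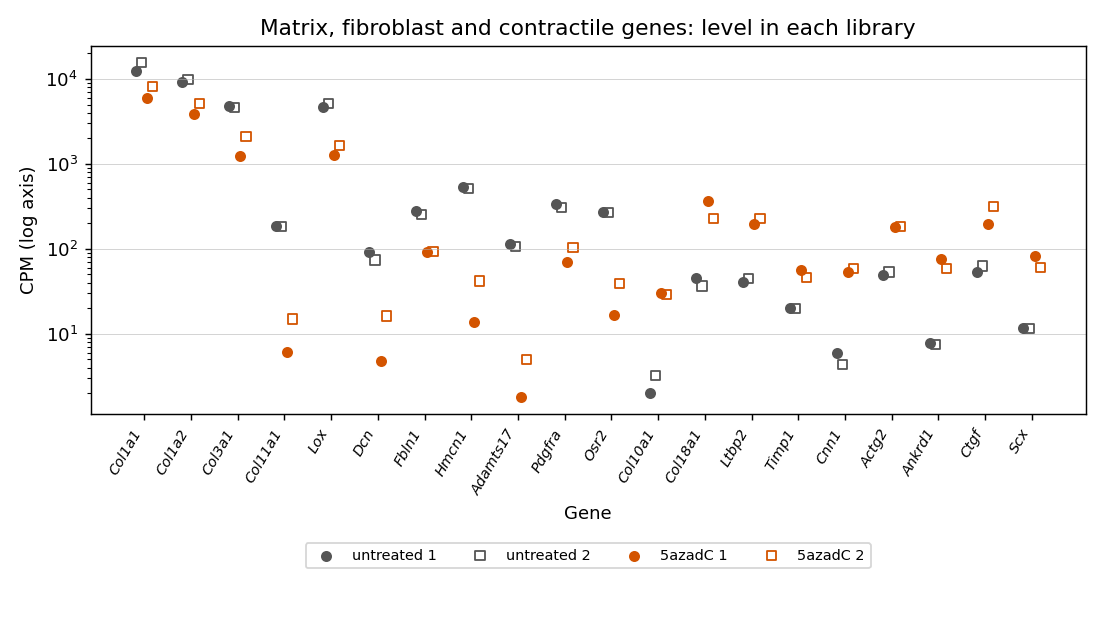
CPM of 20 matrix, fibroblast identity and contractile genes (log axis) in each of the 4 libraries, grey for untreated and orange for 5azadC, filled for replicate 1 and open for replicate 2. From Col1a1 to Osr2 both treated values lie below both untreated values, and from Col10a1 to Scx both lie above.

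Transcription factors of mesenchyme moved both ways, with 12 of 40 lower (30%) and 10 higher (25%), against 19.6% and 22.6% of all genes tested. Osr2, a factor of limb and palate mesenchyme, fell from 274 and 267 to 16.8 and 39.1 CPM (-3.30 ± 0.23), Ebf1 from 330.2 and 326 to 127 and 112 CPM (-1.45 ± 0.10), and Foxc1 from 287 and 321 to 132 and 114 CPM (-1.30 ± 0.10). Its paralogue Foxc2 rose from 3.17 and 3.37 to 22.5 and 15.5 CPM (2.55 ± 0.24), and the tendon factor Scx from 11.6 and 11.4 to 82.05 and 60.6 CPM (2.63 ± 0.17). Hox genes, which record position along the body, fell in 14 of 26 tested members and rose in 2, with a median log2 change of -0.59; without untreated replicate 2 the falls were 9. Members of the posterior end of the clusters were among them. Hoxc13 fell from 272 and 319 to 139 and 171 CPM (-0.93 ± 0.13), Hoxc12 from 152 and 182 to 75.02 and 94.9 CPM (-0.97 ± 0.13), and Hoxb13 from 76.5 and 74.3 to 44.7 and 50.5 CPM (-0.67 ± 0.12). Hoxa11 rose from 21.3 and 19.4 to 44.4 and 30.03 CPM (0.87 ± 0.17).

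Clustered protocadherins, adhesion proteins best known from neurons where each cell selects a few of them, fell in 33 of 33 tested members. The 11 that fell at least 2-fold were all of the beta cluster, whose genes are single exons but close in sequence. Pcdhb16 went from 42.4 and 37.2 to 5.57 and 9.87 CPM (-2.39 ± 0.22, adjusted p 2.39e-06), Pcdhb19 from 26.2 and 20.96 to 2.79 and 5.897 CPM (-2.47 ± 0.31), and Pcdhb17 from 58.03 and 48.1 to 9.14 and 20.98 CPM (-1.85 ± 0.26). The gamma members share their last exons, so their near-equal levels and small falls count the same reads many times and are not separate results. Members of the alpha cluster counted by themselves had at most 6 reads in any library.

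In the PDGF system a receptor fell and a ligand rose. Pdgfra, the receptor of fibroblast progenitors, fell from 342 and 305 to 69.1 and 105 CPM, while its ligand Pdgfa rose from 22.4 and 27.3 to 74.9 and 57.05 CPM (1.43 ± 0.16). The related receptor Pdgfrb, at 487 and 477 CPM and then 420.2 and 465 CPM, was not called. Of 45 tested TGF-beta and BMP genes 19 fell (42.2%) and 11 rose (24.4%, near the 22.6% of all genes tested). The activin chain Inhbb rose from 5.44 and 5.28 to 26.1 and 37.6 CPM (2.56 ± 0.20) together with the activin binder Fstl3, from 19.7 and 20.7 to 51.2 and 70.6 CPM (1.59 ± 0.15). The procollagen protease Bmp1 fell from 602 and 672 to 343 and 385 CPM (-0.81 ± 0.09).

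In the Wnt pathway 15 of 37 genes fell (40.5%) and 9 rose (24.3%, near the 22.6% of all genes tested). In the fit of the 4 libraries alone 5 rose. Among ligands, Wnt10b rose from 6.89 and 6.89 to 60.5 and 42.9 CPM (2.91 ± 0.20), while Wnt5a, which acts without beta-catenin, fell from 145 and 149.5 to 70.8 and 75.7 CPM (-1.01 ± 0.11). The receptor Fzd1 fell from 668 and 691 to 235 and 322 CPM (-1.29 ± 0.12) and the co-receptor Lrp6 with a log2 change of -0.76 ± 0.09. Secreted modulators fell as well, with log2 changes of -1.63 ± 0.19 and -2.06 ± 0.25 for the enhancers Rspo2 and Rspo3 and -2.77 ± 0.16 for the inhibitor Dkk2. Dkk2 had 133 and 107 CPM untreated and 14.7 and 20.98 CPM treated, with no overlap.

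Of 15 genes of the CCN family and targets of YAP, a factor that answers to cell tension, 8 rose and 3 fell, and the rises numbered 8 in every alternative run. Ankrd1 went from 7.797 and 7.47 to 75.2 and 59.1 CPM (3.13 ± 0.15) and Ctgf from 53.95 and 63.03 to 198 and 318 CPM (2.15 ± 0.18). Within the CCN family Nov went the other way, from 239 and 224 to 79.6 and 87.8 CPM (-1.47 ± 0.10). Contractile genes of smooth muscle rose in 13 of 15 tested and fell in 1. Calponin (Cnn1) had 5.98 and 4.397 CPM untreated and 53.4 and 58.97 CPM treated (3.39 ± 0.17), and the tropomyosins Tpm1 and Tpm2 rose by 1.01 ± 0.09 and 0.80 ± 0.08. Acta2, the smooth muscle actin of myofibroblasts, was among the 10 genes with the largest rise in CPM, from 967 and 1043 to 1477 and 1868. The myosin kinase Mylk fell from 145 and 159 to 116 and 80.9 CPM (-0.62 ± 0.13). The other large rises in CPM were mainly of the cytoskeleton too: Actb from 3654 and 4082 to 6301 and 6286 CPM, Vim from 3558 and 4072 to 6223 and 6057 CPM, and Flna, Plec, Myh9 and Lmna by 0.60 ± 0.08, 0.94 ± 0.11, 0.86 ± 0.08 and 0.90 ± 0.08. Of 7 tested striated genes 3 rose, among them Acta1 from 20.6 and 18.9 to 36.6 and 45.7 CPM (1.05 ± 0.15), and Ckm had at most 1 read in any library.

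The genes that write and read DNA methylation mostly fell or were not called. Dnmt1 had 675 and 659 CPM untreated and 720.4 and 668 CPM treated and was not called (adjusted p 0.622). Of 18 tested genes of this machinery 9 fell and 2 rose (0 to 4 over the alternatives). The 3 dioxygenases that oxidise methylcytosine all fell. Tet1 went from 54.2 and 54.1 to 4.57 and 9.6 CPM (-2.96 ± 0.26), Tet2 from 67.6 and 80.6 to 32.8 and 30.9 CPM (-1.21 ± 0.14), and Tet3 from 219.6 and 251 to 131 and 129.7 CPM (-0.85 ± 0.11). The de novo enzyme Dnmt3a fell, with a log2 change of -0.71 ± 0.09, and the Dnmt1 partner Uhrf1 was not called (adjusted p 0.691). Of 33 Polycomb genes 13 fell and 5 rose, the rises numbering 2 to 5 over the alternatives. Ezh1 fell from 49.1 and 49.98 to 23.7 and 20.4 CPM (-1.16 ± 0.14), Jarid2, which recruits the complex, from 64.8 and 71.1 to 33.9 and 32.8 CPM (-1.02 ± 0.12), and the H3K27 demethylases Kdm6b and Kdm6a with log2 changes of -1.28 ± 0.17 and -0.64 ± 0.11. Of 20 H3K9 and heterochromatin genes 6 fell and 2 rose. The methyltransferase Suv39h2 rose from 14.7 and 14.1 to 34.8 and 32.9 CPM (1.23 ± 0.15), and the demethylase Kdm4b fell from 145 and 144 to 79.3 and 86.4 CPM (-0.80 ± 0.09).

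Clustered histone genes, whose transcripts lack the usual poly(A) tail and appear in total RNA, differed between the treated libraries. Of 69 genes 7 rose (10.1%) and 10 fell (14.5%), both shares below the 22.6% and 19.6% of all genes tested. Without 5azadC replicate 1 the rises numbered 23, and without untreated replicate 1 they numbered 2. Without 5azadC replicate 2 the falls numbered 34. Hist2h2aa1 had 1.09 and 1.76 CPM untreated and 1.23 and 92.2 CPM treated, so its call rests on replicate 2. It was lost without 5azadC replicate 2 (adjusted p 0.87) or untreated replicate 1 (adjusted p 0.0691). Its copy Hist2h2aa2 had near-identical values, and reads cannot be told apart between such copies.

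The X chromosome was read by allele. In female cells 1 X chromosome is coated by the RNA Xist and silenced, with promoter methylation among the layers that keep it so, and a few genes escape. In these cells the mus X was the mostly silent one: over 277 X-linked genes without Xist, mus reads made up 4.01% and 4.05% of allelic reads in the untreated libraries. With 5azadC they made up 5.26% and 4.89%, a gain of 1.05 percentage points. Treated shares lay above untreated ones, but 2 against 2 libraries cannot give a p below 0.333 in the exact two-sided permutation test, which is the p obtained. Single autosomes moved as far: their pooled mus shares shifted by between -1.80 and 3.24 points, 6 of 19 by more than the X, and the groups did not overlap on 7 that were higher and 6 that were lower. The gain of 3.24 points was on chromosome 13, which carries histone copies whose reads are uncertain. Chromosome 14 shifted by 1.51 points, but its treated shares of 62.0% and 76.4% lay far apart. Chromosomes 6, 7, 17 and 18 shifted by 2.725, 1.495, 1.07 and -1.80 points without overlap. In points, a shift of this size is therefore not particular to the X. The starting shares were unlike, however, at 38.5% to 67.7% for single autosomes in untreated cells. Relative to the untreated mean, the X-linked share rose 1.26-fold, against 0.962-fold to 1.07-fold on single autosomes. This difference was not tested. As a rate, mus reads went from 616 and 592 to 794 and 708 allelic CPM, which is CPM taken over all allelic reads of a library (1.24-fold), and cas reads from 14700 and 14000 to 14300 and 13800 (0.976-fold). Without genes known to escape inactivation the gain was 0.932 points. Not every gene was mostly cas: 261 and 260 of 275 lay below a mus share of 50% in the untreated libraries. Ngfrap1, picked after its values were seen, had 56 of 57 and 41 of 41 mus reads there. Such genes add to the pooled mus share, so it is not output of the silent X alone. Whether their reads were assigned to the right allele was not tested.

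Few single genes shifted. Of 278 X-linked genes tested for a shift in allele ratio 3 had a higher mus share (1.08%) and 1 a lower (0.36%), against 12 higher (0.12%) and 15 lower (0.15%) of 10023 genes elsewhere. Of the 275 X-linked genes with allelic reads in all 4 libraries, 30 had both treated shares above both untreated ones (10.9%), 21 had both below (7.64%), and 224 overlapped. Among 9960 genes on other chromosomes 17.6% lay above and 17.8% below. The median X-linked shift was 0. Of 118 X-linked genes without a mus read in either untreated library 10 had mus reads in both treated ones, and of 123 without one in either treated library 6 had mus reads in both untreated ones. The 118 cannot lie lower and the 123 cannot lie higher, which holds down the X-linked 10.9% and 7.64%. The shares on other chromosomes are thus not a like measure, and the same zeros hold the median shift at or near 0. Leaving out the 3 called genes, chosen after their values were seen, the pooled shares were 4.47% and 4.61% untreated and 5.13% and 5.14% treated, a gain of 0.595 points.

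Msn (moesin, which links actin to the membrane) had the lowest adjusted p of the gains. Its mus reads numbered 1 and 0 of 614 and 409 in untreated libraries, shares of 0.163% and 0% with exact binomial 95% intervals reaching up to 0.904% and 0.898%. With 5azadC they were 150 of 1692 and 42 of 1188, or 8.87% (7.55% to 10.3%) and 3.54% (2.56% to 4.75%), with an adjusted p of 6.76e-09. Intervals cover counting error only. The treated libraries stood apart from each other as well as from the untreated ones. The gene also rose in total, and its cas reads went from 205 and 212 to 633 and 553 allelic CPM. For Bgn (biglycan), the mus share went from 0.578% and 0.788% to 2.93% and 2.11% (adjusted p 2.12e-06). There the total fell: mus reads rose from 8.71 and 13.4 to 27.1 and 19.8 allelic CPM while cas reads fell from 1500 and 1690 to 899 and 917. Mid1, which borders the pseudoautosomal region, went from 3.05% and 1.84% to 17.99% and 5.96% (adjusted p 0.000905). Without 5azadC replicate 1 the adjusted p was 0.513, so its call rests on that library. No call was made for Hprt, often used as a readout of the inactive X. With few allelic reads it had 0 of 21 and 0 of 10 mus reads untreated and 2 of 46 and 0 of 33 treated.

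**Figure D5:**
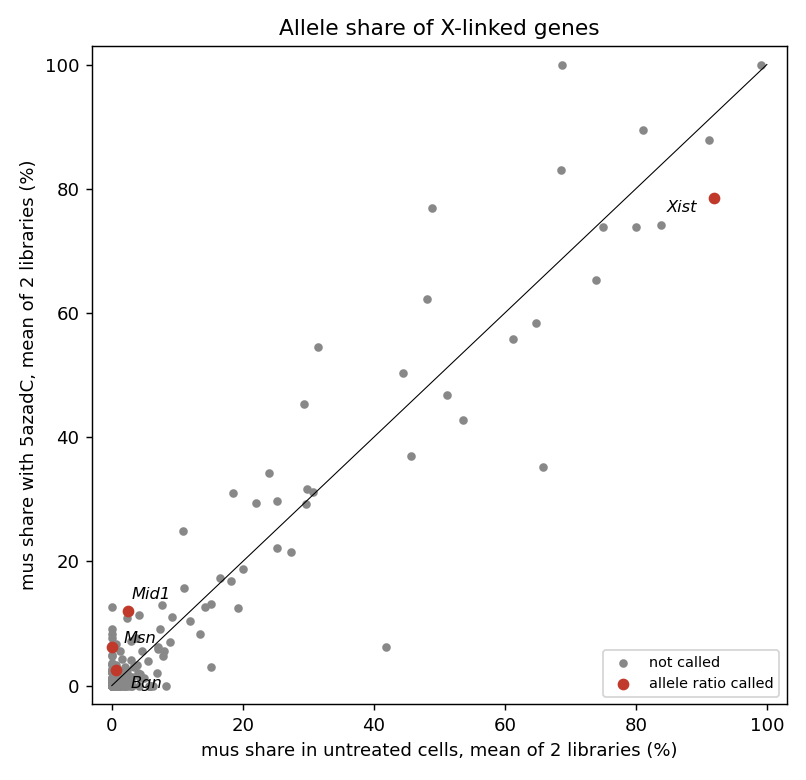
Share of reads from the mus allele (%) for 276 X-linked genes with allelic reads in all 4 libraries, mean of the untreated libraries on the horizontal and of the 5azadC libraries on the vertical axis, with the line of equality. Most genes crowd at the lower left near 0; red marks the 4 genes with a called shift, Msn, Bgn and Mid1 above the line and Xist below.

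Xist itself fell, and its allelic makeup shifted. Total Xist went from 781 and 786 to 405 and 426 CPM (-0.92 ± 0.08, adjusted p 1.75e-06). Its mus share was 93.2% and 90.7% in untreated and 77.4% and 79.8% in treated cells (adjusted p 1.52e-08). Mus Xist fell from 800 and 740 to 331 and 329 allelic CPM, 2.33-fold. Cas Xist went from 58.3 and 76.0 to 96.9 and 83.5 allelic CPM, 1.34-fold more. Xist overlaps the antisense gene Tsix, and the strand setting of the counting is not given, so part of these reads may be antisense. Including Xist in the pooled X share turned its gain of 1.05 into a loss of 1.57 points.

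Genes known to escape inactivation fell in total more often than they rose, 6 of 12 against 1. Beside Xist, Kdm6a fell from 105 and 106 to 61.8 and 74.1 CPM (-0.64 ± 0.11). Without untreated replicate 1 or 5azadC replicate 1 the falls were 3. The pooled mus share of 10 of them without Xist went from 16.1% and 16.6% to 23.75% and 21.7%. Without Mid1, left out after its call was seen, the shares were 23.9% and 26.8% untreated and 25.45% and 30.03% treated and overlapped (exact permutation p 0.667).

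Imprinted genes are expressed from 1 parental allele. Of 31 tested 9 fell and 5 rose (3 to 7 over the alternatives). Grb10 fell from 858 and 891 to 508 and 576 CPM (-0.69 ± 0.09) and Plagl1 from 45.97 and 57.02 to 23.7 and 20.6 CPM (-1.21 ± 0.16), while Dlk1 rose from 99 and 57 reads to 337 and 140 reads (1.72 ± 0.27). The rise of Igf2 rests on 5azadC replicate 1: its log2 change was 5.60, and 0.00 without that library. None of 20 in the allele fit was called by edgeR, and 4 had an unadjusted p under 0.05. Of 11 with at least 95% of reads from 1 allele in untreated cells, 9 kept at least 90% with 5azadC. The exceptions, Snrpn and Snurf, had identical allele counts in every library and are not separate results. Plagl1 was read only from mus, with 170 and 133 reads untreated and 86 and 51 treated. For Grb10 5 of 513 and 3 of 309 reads were mus untreated and 1 of 209 and 2 of 194 treated. Dlk1 had more cas reads with 5azadC: 3 of 29 and 0 of 10 reads were cas in untreated cells and 35 of 99 and 7 of 39 with 5azadC (adjusted p 0.696). Snrpn had 0 of 14 cas reads untreated and 1 of 7 and 7 of 10 treated, too few for a call (adjusted p 0.654).

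On other chromosomes some called shifts were of histone copies, where reads are uncertain, and others of genes described above. The mus share of Cxcl12 went from 54.2% and 54.2% to 70.0% and 69.1% (adjusted p 0.000164) as its level fell. Ly6e, an interferon-induced membrane protein, went from 72.65% and 81.7% to 44.1% and 47.8% (7.82e-05) as it rose. Ifit2 was almost wholly mus in untreated cells, at 97.4% and 98.3%, and had 70.4% and 72.2% with 5azadC (6.28e-05): its cas reads went from 4 and 1 to 53 and 25. The p53 target Psrc1 went from 64.1% and 62.1% to 80.8% and 86.0% (0.000164). For these 4 genes treated and untreated shares did not overlap. Calls of a lower mus share, 15 in all, numbered 5, 7 and 9 without untreated replicate 1, untreated replicate 2 and 5azadC replicate 1. In the authors' deposited table of each allele's expression, at an FDR under 0.05 15 of 226 X-linked genes were higher and 10 lower on the mus allele, against 19 and 29 on the cas allele; elsewhere 672 and 562 of 9016 genes were higher and lower on mus and 1072 and 823 on cas.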

How the data were processed

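Total RNA from tail fibroblasts was sequenced from strand-marking (dUTP) libraries, per the labels' protocols. The submitters' processing notes name the build mm9, TopHat2 2.0.10, HOMER 4.8 and edgeR. The tables deposited by the authors hold raw read counts per gene, over both alleles (composite) and for each allele; the strand setting of the counting is not given in the sources used here. The authors also deposited tables of allele comparisons with log2 fold changes and p-values with FDR.

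Here composite counts were tested with edgeR 4.0.16 in R 4.3.3 (low-count filter filterByExpr, TMM scaling, quasi-likelihood F test) over all 8 libraries, with 5azadC against untreated as contrast. Allele ratios were tested in the same way on mus and cas counts, keeping genes that averaged 10 or more allelic reads. Both fits were tested on simulated data. Genes with no read in a group were set against a floor of 3 reads over the group, and genes with 1 to 3 reads are given as ratios with counting intervals. DESeq2 1.42.0, other scaling and filters, the 4 libraries alone, a replicate block and leaving out each library were tried.

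Genes named with values were the largest rises and falls (15 each by log2 change, 10 each by CPM), up to 8 members per list by smallest p with those called against their list, 12 genes with no untreated read, those with the largest allele shifts, the largest differences between treated libraries, and 7 fixed genes. A few members with almost no reads or no call, such as Ifnb1, Ddx4, Krt5, B2m, Uhrf1 and Timp2, were named after their values were seen. The comparison and the gene lists were chosen with earlier results of these data known. Some genes that this rule names are not reported here.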

Additional observations from a re-analysis of the deposited data

How the results depend on the processing

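The 5332 called genes became 4169 in the fit of the 4 libraries alone, 4635 with DESeq2, 5325 with RLE size factors, 5558 without a low-count filter and 3936 to 5490 with a library left out. The labels do not say whether replicate numbers pair libraries across groups. Differences between replicates did not correlate between the groups (r = 0.000824 across genes), which cannot exclude a shared batch. A replicate block gave 5121 called genes. Genes with a shifted allele ratio numbered 31, and 17 (without untreated replicate 1) to 37 with a library left out. Of these, the 15 with a lower mus share on other chromosomes became 5, 7 and 9 without untreated replicate 1, untreated replicate 2 and 5azadC replicate 1, and 17 without 5azadC replicate 2. The X-linked gain of 1.05 points in mus share was -1.57 with Xist included, 0 as the median over genes, 0.595 without Msn, Bgn and Mid1 (chosen after seeing the data) and 0.861 to 1.24 with a library left out. That median is fixed at 0, since 146 to 166 of the 277 genes had no mus read in a library. The 36 genes with no untreated read became 79 with at least 5 reads asked for, 12 with at least 20, and 39 to 89 with a library left out (76 and 56 without untreated replicate 1 and 2). Named log2 changes turned, or for Igf2 fell to 0, in 5 genes, all without a treated library. Without 5azadC replicate 1 and without replicate 2 they were -0.50 and 5.218 for Hist1h2bq, -0.69 and 5.02 for Hist1h2br, 0.00 and 6.50 for Igf2, 6.08 and -0.18 for Hist2h2aa1, and 5.96 and -0.28 for Hist2h2aa2. The log2 allele ratio of Hist1h4f changed by -0.046 without 5azadC replicate 1 and by up to 7.72 with another library left out. The cause of these changes was not tested. With 2 libraries a group, exact tests on single values cannot pass the threshold, and allele shares of genes with few mus reads cannot show small gains.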

Other observations

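Some called genes differed widely between the treated libraries. Kcnh1, a potassium channel, had 0.293 and 0.147 CPM in untreated cells and 9.81 and 1.65 CPM with 5azadC. Rnf183, a ubiquitin ligase, had no read in untreated cells and 4.12 and 0.686 CPM with 5azadC. No label describes a difference between these libraries.

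Pooled over 10023 genes on other chromosomes, the mus share was 47.1% and 47.5% in untreated and 46.9% and 48.8% in 5azadC libraries. Without the abundant RNA genes Rpph1 and Rprl3, left out after they were seen to move it, the shares were 45.66% and 45.68% and then 45.94% and 46.12%.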
